A study of Mus musculus with 42 samples.

Results

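The aorta of spontaneously diabetic KK/Ay mice was compared with the aorta of healthy C57BL/6 mice across all genes on 6 of the 42 single-colour microarrays of the series. The members were chosen by their titles alone, 3 arrays of the healthy group and 3 of the diabetic group, with RNA from the tissue of 3 mice per group. All mice were male, with an age given as 18 to 20 weeks, and both groups received saline by gavage for 8 weeks, which the methods list at 5 mg/kg per day. KK/Ay is an inbred strain that carries the Ay allele of the agouti locus, so strain, allele and diabetes lie between the same arrays and cannot be told apart. A further 15 aorta arrays came from KK/Ay mice that also received a high-fat diet and the nitric oxide synthase inhibitor L-NAME. In 4 of their 5 groups a drug or herbal compound was given as well. These arrays are used below as levels, and otherwise only in the normalisation and in alternative fits.

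The aorta is an elastic artery whose wall holds an endothelium, a media of contractile smooth muscle with elastic fibres, and an adventitia of fibroblasts. It is surrounded by perivascular fat, which in the thoracic part of the mouse aorta resembles brown adipose tissue, and a piece of aorta taken whole for RNA can carry that fat, lymph nodes and muscle. In the Ay allele a deletion places the agouti coding exons behind the promoter of the neighbouring gene Raly, so that agouti, a secreted antagonist of melanocortin receptors normally made in skin, is transcribed in most tissues. The mice overeat, gain fat, carry much leptin and become insulin resistant. Insulin and dietary carbohydrate are known to raise the transcription of the enzymes that make fatty acids in liver and fat. In fat, insulin resistance is known to blunt that response.

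The labelled tissue was checked against its defining markers. On all 6 arrays the smooth muscle genes Acta2, Myh11 and Cnn1 and the endothelial genes Pecam1 and Cdh5 were well above background. This does not single out aorta, since healthy skeletal muscle had means of 9.9 for Acta2, 9.85 for Myh11, 7.6 for Pecam1 and 9.31 for Cdh5. Healthy aorta array 1, at 8.99, 9.15, 7.7 and 8.55, was below muscle in all but Pecam1. The other aorta arrays lay above the muscle means in Acta2, Myh11 and Pecam1, and the diabetic ones lay below it in Cdh5. The perivascular fat was present as well, with a log2 intensity of Ucp1, the uncoupling protein of brown adipocytes, between 14.98 and 17.45 and of Adipoq, the adiponectin gene, between 13.46 and 15.28. Skeletal muscle was unequal: the mean log2 intensity of 19 skeletal muscle genes was 9.05, 7.61 and 11.32 in healthy arrays 1 to 3 and 8.91, 14.28 and 10.82 in diabetic arrays 1 to 3. These are bulk samples, in which fewer cells of a type and less RNA per cell cannot be told apart. Ddx3y, a Y-linked gene, was well above background on all 6 arrays, between 7.44 and 8.67, and Xist, which females transcribe from the inactive X, did not pass the filter on low values.

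Healthy array 1 stood apart from the other 5. Over 14050 of the genes tested its correlation with them was 0.833 to 0.889, against 0.938 to 0.98 among the others. Of all 14089 genes tested, 484 lay more than 2 log2 units above and 324 more than 2 below the mean of the other 5 (at most 118 and 65 for any other array). It was high in genes of plasma cells, T cells, neutrophils and macrophages. The immunoglobulin gene Ighg3 was at a log2 intensity of 17.19 there and 6.96 to 9.9 elsewhere, the neutrophil protein gene S100a9 at 17.65 against 10.71 to 13.33, and the mean of 16 T and B lymphocyte genes at 11.44 against 6.88 to 8.85. It was low in genes of the aortic wall, with Myh11, the smooth muscle myosin, at 9.15 against 12.64 to 15.01. The mean of 22 contractile smooth muscle genes was at 8.79 against 10.65 to 11.93. Genes of the surrounding fat were low there too, with the mean of 18 brown adipocyte genes at 10.86 against 11.69 to 12.59. The genes were therefore tested with the 6 arrays and again without this array, a choice made after its values were seen. Every gene that passed with the 6 arrays also passed without it, so its value is given mostly from the 6 arrays, and a gene that passed only without it is said to have done so.

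**Figure D1:**
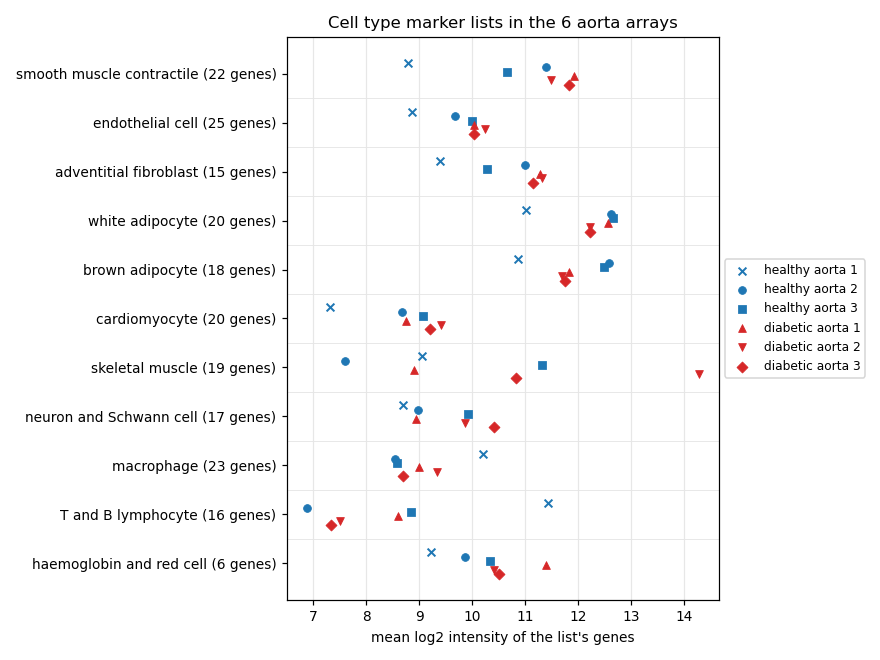
Mean log2 intensity (x axis) of the genes of 11 cell type marker lists (y axis, number of genes tested in brackets) on each of the 6 aorta arrays, blue for healthy and red for diabetic. Healthy aorta 1 (crosses) lies lowest in the smooth muscle, endothelial, fibroblast and adipocyte lists and highest in the macrophage list and in the T and B lymphocyte list, where it is at 11.44 against 6.88 to 8.85 on the other arrays.

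The arrays also lay on 3 slides. Slide 1 held healthy 1, healthy 3 and diabetic 1 and was scanned on another day than the slide of healthy 2 and the slide of diabetic 2 and 3. Since only slide 1 holds both groups, a fit with slide 1 as a block and the difference within slide 1 are given where they bear on a call.

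With the 6 arrays, 30 of 14089 genes had a Benjamini-Hochberg adjusted p below 0.05 in limma (0.213%), with 12 of these above (0.0852%) and 18 below (0.128%) the healthy level in diabetic mice. At an unadjusted p below 0.05, 1638 genes passed (11.6%), 922 higher and 716 lower. Without healthy array 1 the number was 191 (1.36%), 50 higher (0.355%) and 141 lower (1.0%). At an unadjusted p below 0.05 it was then 2040 (14.5%), 885 higher and 1155 lower. List counts at that threshold below are to be read beside these counts of all genes. All 30 genes were among the 191, with the same direction. With slide 1 as a block 9 genes passed (0.0639%), all of them among the 30: the agouti gene, Gdpd3, Hal and Ifi202b higher, and Cdkn1a, Pttg1, Orm1, Cyp2e1 and Mfsd2a lower. The groups did not overlap in any of the 30 genes, as against 19.4% of all genes tested, and in 143 of the 191 over the 6 arrays. Over the 5 arrays without healthy 1 they did not overlap in any of the 191 and in 31.5% of all genes. The genes that passed were picked by p-values from these same arrays. Their lack of overlap is thus largely built in and is no separate support. The count of 30 rests on single arrays: it was 22 without healthy 2, 4 without healthy 3, 6 without diabetic 1, 0 without diabetic 2 and 2 without diabetic 3, and 0 with each slide as a block (1263 at an unadjusted p below 0.05). Of the 30 adjusted p-values, 6 round to 0.05 and so lie at the threshold. In what follows a gene that passed is one with an adjusted p below 0.05 in the fit named.

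**Figure D2:**
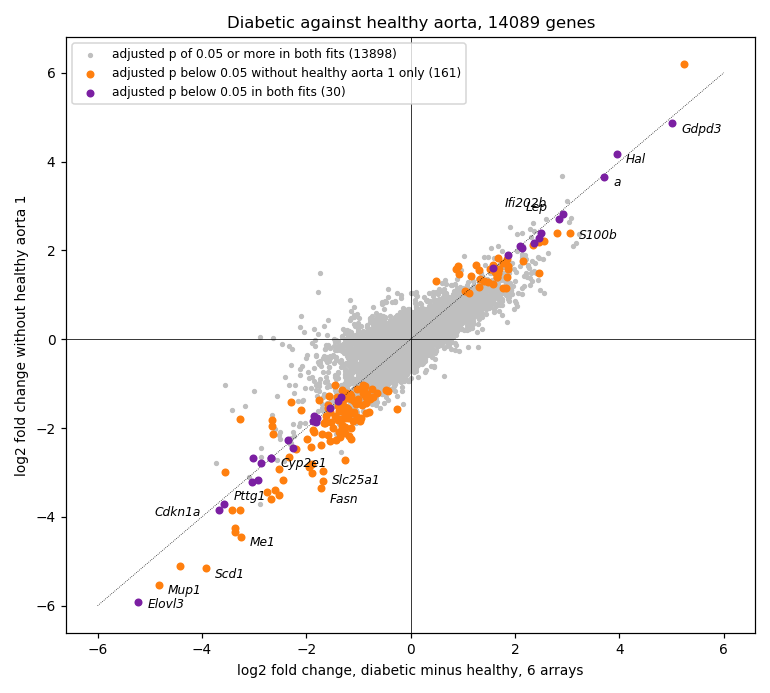
Log2 fold change of each of the 14089 genes, diabetic minus healthy, with the 6 arrays (x axis) and without healthy aorta 1 (y axis). The 30 genes that passed in both fits (purple) lie near the dotted line of equal values, and of the 161 that passed only without that array (orange) many lower genes, Fasn and Slc25a1 among them, lie well below it.

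Agouti itself (symbol a, probe at mm9 chr2:154871493-154873446) checks the labels. Its log2 intensity was 5.30, 5.49 and 5.46 on healthy arrays 1 to 3, where it was not well above background on any array, and 9.41, 9.09 and 8.88 on diabetic arrays 1 to 3. It was at least 11-fold higher in the diabetic group, measured against the lowest signal above background (n = 3 and 3, adjusted p of the limma fit 0.00418). The 15 other KK/Ay aorta arrays lay between 8.77 and 9.61, so every KK/Ay array was high. Raly, the gene whose promoter the Ay allele uses, was at 13.21, 12.68 and 11.85 in the healthy group and 12.05, 12.27 and 11.59 in the diabetic group (log2 fold change -0.61 ± 0.38, adjusted p 0.592). Of the 16 tested genes of the agouti locus and its neighbours only agouti passed.

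Nnt encodes the mitochondrial proton-pumping transhydrogenase, of which a common substrain of C57BL/6 lacks several exons. Its log2 intensity, the mean of 3 probes (the brightest at mm9 chr13:120124529-120124588), was 7.91, 7.58 and 8.01 in the healthy group and 9.68, 9.96 and 9.45 in the diabetic group. The log2 change was 1.86 ± 0.22 (SE, n = 3 and 3, adjusted p 0.0497), and 1.58 to 2.39 by probe. Lep, the adipocyte hormone leptin (mm9 chr6:29023234-29023293), was at 5.33, 6.18 and 5.26 in the healthy group, well above background on 1 array, and at 8.81, 8.37 and 8.12 in the diabetic group, on all 3. The difference was 2.84 ± 0.32 (adjusted p 0.0445), and without healthy array 1 it was 2.71 ± 0.34 (adjusted p 0.0273). For Nnt and Lep the groups did not overlap, and neither passed with slide 1 as a block (adjusted p 0.129 and 0.14).

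The largest increase among the 30 was in Gdpd3, a glycerophosphodiester phosphodiesterase of lysophospholipid breakdown (mm9 chr7:133914520-133914693). Its log2 intensity was 6.25, 6.97 and 6.40 in the healthy group and 11.54, 11.68 and 11.44 in the diabetic group, with a change of 5.01 ± 0.24 (adjusted p 0.00406). Hal, histidine ammonia-lyase (mm9 chr10:92979135-92979194), was at 6.3, 5.62 and 5.67 against 10.06, 10.03 and 9.35 (3.95 ± 0.29, adjusted p 0.0121), and only 1 healthy array was above background. For Ifi202b, an interferon-inducible gene of a family that binds DNA (mm9 chr1:175892953-175893982), the healthy values were 5.05, 5.65 and 5.01, none above background, and the diabetic ones 7.77, 8.37 and 8.34. It was at least 5.63-fold higher (adjusted p 0.0267). Within slide 1, diabetic 1 exceeded the mean of healthy 1 and 3 by 5.21 for Gdpd3 on the log2 scale, and in the other 2 genes and agouti it lay above both.

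The other increases were smaller, from 1.57 to 2.49. Fam20c, a kinase of secreted proteins, was at 8.72, 9.36 and 8.71 in the healthy group and 11.87, 11.30 and 11.07 in the diabetic group (2.49 ± 0.29, adjusted p 0.05). Gdf5, a growth factor of the bone morphogenetic protein family, was at 6.46, 6.71 and 6.66 against 9.02, 8.70 and 8.48 (2.13 ± 0.20, adjusted p 0.0289). Cdh15, the cadherin of muscle precursor cells, was at 6.45, 6.13 and 6.74 against 8.24, 8.53 and 8.81 (2.09 ± 0.24, adjusted p 0.0497). In all 3 genes the lowest diabetic array lay over 1 log2 unit above the highest healthy array. The transcripts Ocel1, 1700020D05Rik and 1810037I17Rik were higher by 2.46, 2.36 and 1.57. The 2 probes of 1810037I17Rik disagreed, with log2 fold changes of -0.28 and 3.42, so that its direction depends on the probe.

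Of the decreases that also passed with slide 1 as a block, Cdkn1a and Pttg1 had the largest. Cdkn1a encodes p21, an inhibitor of cyclin-dependent kinases that p53 and glucocorticoids induce (mm9 chr17:29237377-29237436). Its log2 intensity was 11.13, 11.51 and 11.77 in the healthy group and 7.75, 7.90 and 7.70 in the diabetic group, a change of -3.68 ± 0.22 (adjusted p 0.00418). Pttg1, securin, which holds sister chromatids together until anaphase (mm9 chr11:43233801-43233860), was at 12.50, 12.84 and 12.96 against 9.35, 9.0 and 9.23 (-3.57 ± 0.20, adjusted p 0.00418). Cyp2e1, a cytochrome P450 that oxidizes ethanol, acetone and small organic molecules (mm9 chr7:147959585-147959644), was the most even gene of these, at 11.34, 11.34 and 11.36 against 8.50, 8.83 and 8.68 (-2.68 ± 0.17, adjusted p 0.00566). Mfsd2a, a transporter of lysophosphatidylcholine (mm9 chr4:122624182-122624241), was at 9.68, 9.90 and 9.42 against 6.76, 6.93 and 7.27 (-2.68 ± 0.22, adjusted p 0.0164). Healthy array 1 lay within 1 log2 unit of the other healthy arrays in all 4 of these genes.

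The acute phase proteins Orm1 and Orm2, which lie side by side on chromosome 4, fell together. Orm1 was at 10.22, 11.08 and 10.76 in the healthy group and 7.26, 8.13 and 7.87 in the diabetic group (-2.93 ± 0.32, adjusted p 0.0445), and Orm2 at 10.71, 11.08 and 11.32 against 7.70, 8.24 and 8.03 (-3.05 ± 0.24, adjusted p 0.0134). Their coding sequences are similar, so each probe may bind the transcript of the other. Geminin, Gmnn, an inhibitor of DNA replication licensing, was at 11.75, 10.93 and 10.46 against 8.41, 7.85 and 7.80 (-3.03 ± 0.37, adjusted p 0.05). Ehhadh, an enzyme of peroxisomal fatty acid oxidation, was at 11.56, 10.73 and 11.87 against 8.84, 8.15 and 8.56 (-2.87 ± 0.34, adjusted p 0.05). Cyp1a1, the cytochrome P450 induced through the aryl hydrocarbon receptor, was at 7.95, 8.59 and 8.48 against 5.72, 6.43 and 6.12 (-2.25 ± 0.27, adjusted p 0.05), with 2 of 3 diabetic arrays above background. Tomm22, a receptor subunit of the mitochondrial import pore, fell by 1.88 and Thumpd1, an RNA-binding cofactor of tRNA acetylation, by 2.35. The 2 probes of Thumpd1 disagreed (log2 fold changes of -4.87 and 0.16).

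The largest decrease among the 30 was in Elovl3, which lengthens very long-chain fatty acids in brown fat, skin and liver (mm9 chr19:46209762-46209821). Its log2 intensity was 9.38, 11.73 and 11.12 in the healthy group and 4.92, 5.60 and 6.03 in the diabetic group, above background on 1 of 3 diabetic arrays. The change was -5.22 ± 0.63 (adjusted p 0.05) with the 6 arrays and -5.91 ± 0.37 (adjusted p 0.00357) without healthy array 1, the lowest of the healthy group.

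The 15 other KK/Ay aorta arrays, which share no array with either group, were set beside these values without a test. Healthy 2 and 3 both lay outside their whole range in 28 of the 30 genes (93.3%), in 169 of the 191 (88.5%) and in 1687 of all 14089 (12%). The 30 and the 191 were picked by p-values that used healthy 2 and 3, so their larger shares are in part built in. The 2 exceptions among the 30 were Mfsd2a, with other KK/Ay arrays from 6.44 to 10.91, and Cyp1a1, from 5.5 to 8.55. Among the 30 genes, all 3 diabetic arrays lay inside that range in 23.

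**Figure D3:**
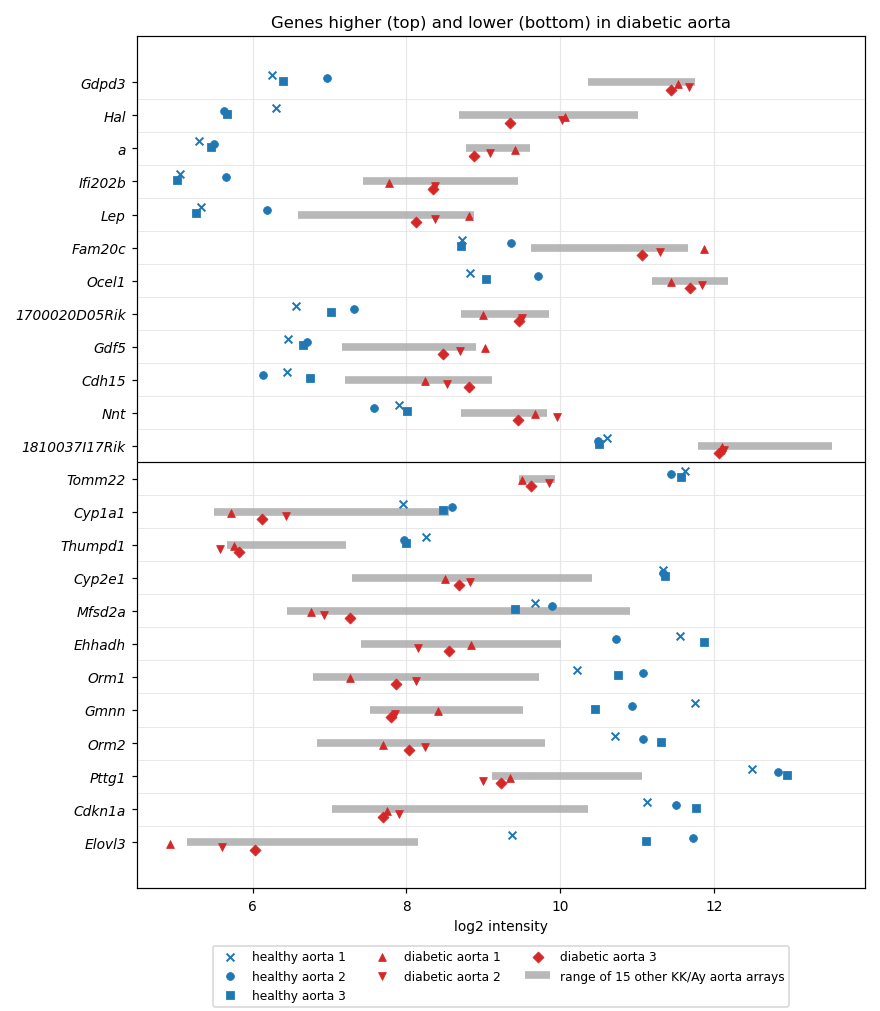
Log2 intensity (x axis) of the 12 largest increases (above the line) and 12 largest decreases (below it) among the 30 genes, on the 3 healthy arrays (blue), the 3 diabetic arrays (red) and as the range of the 15 other KK/Ay aorta arrays (grey bars). In each gene the blue and red points do not overlap, and agouti (a) lies at 8.77 to 9.61 on the other KK/Ay arrays.

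Fatty acid synthesis was the list with the most genes lower in the diabetic group once healthy array 1 was left out, and none of its genes passed with that array in. Of 20 genes tested, 8 passed as lower and 0 as higher without it, against 1.0% of all genes as lower, and 0 of 20 with the 6 arrays, where 4 were lower and 1 higher at an unadjusted p below 0.05 (15 and 0 without healthy array 1). The median log2 fold change of the list was -1.54 without it and -1.08 with it (0.02 for all genes in both fits), and 17 of 20 were negative in both. The list mean was 12.55 and 12.08 on healthy arrays 2 and 3, between 10.37 and 10.59 on the diabetic arrays, and 9.80 on healthy array 1, which lay below the diabetic group. The 20 white adipocyte genes had a mean of 11.01 on healthy array 1, 12.63 and 12.66 on healthy 2 and 3 and 12.22 to 12.56 on the diabetic arrays, and the 18 brown adipocyte genes 10.86, then 12.59 and 12.49, then 11.69 to 11.83. Both were lowest on healthy array 1 and highest on healthy 2 and 3, and their part in the result was not tested.

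The 8 genes cover the path from citrate to unsaturated fatty acids and glycerolipids. Slc25a1, which exports citrate from mitochondria, was at 10.20, 14.79 and 14.61 on healthy arrays 1 to 3 and 11.60, 11.52 and 11.41 on the diabetic arrays (-3.19 ± 0.17 without healthy array 1, adjusted p 0.00278; -1.69 ± 1.18 with it, adjusted p 0.627). Acly, which splits citrate to acetyl-CoA, was at 7.57, 11.30 and 10.43 against 8.75, 8.76 and 8.36 (-2.24 ± 0.30, adjusted p 0.0353, without healthy array 1). Acss2, which makes acetyl-CoA from acetate, was at 6.74, 9.08 and 8.72 against 6.64, 7.08 and 6.92 (-2.02 ± 0.22, adjusted p 0.018). In all 3 genes healthy 2 and 3 were above every diabetic array, and healthy 1 was not.

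Me1, malic enzyme, a source of NADPH, was at 10.01, 13.84 and 13.34 in the healthy group and 8.82, 9.21 and 9.38 in the diabetic group. The difference was -4.45 ± 0.25 (adjusted p 0.00278) without healthy array 1 and -3.26 ± 0.96 (adjusted p 0.305) with it. Fasn, fatty acid synthase, was at 11.50, 16.69 and 16.11 against 13.32, 12.78 and 13.02 (-3.35 ± 0.26, adjusted p 0.00615, and -1.72 ± 1.3, adjusted p 0.649). Elovl6, which lengthens the product of Fasn, was at 11.49, 14.46 and 14.41 against 11.30, 10.57 and 10.93 (-3.50 ± 0.24, adjusted p 0.00526, without healthy array 1). The largest change of the list was in Scd1, which puts the double bond into palmitate and stearate, at 13.05, 16.64 and 16.82 against 12.06, 11.42 and 11.23 (-5.16 ± 0.28, adjusted p 0.00278, and -3.93 ± 0.99, adjusted p 0.248). Agpat2, an acyltransferase of glycerolipid synthesis, was at 10.89, 13.14 and 13.00 against 11.36, 10.98 and 10.58 (-2.10 ± 0.26, adjusted p 0.0268). In Scd1, Me1 and Elovl6 all 3 healthy arrays lay above the diabetic arrays, whereas in Fasn healthy 1 lay below them. On slide 1, diabetic 1 was below healthy 3 in 16 of the 20 genes.

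The members that missed the threshold without healthy array 1 included Acaca, acetyl-CoA carboxylase, at 7.35, 11.37 and 10.48 against 9.02, 8.27 and 7.91 (-2.53 ± 0.41, adjusted p 0.0535). Srebf1, the transcription factor known to drive this list, was at 13.26, 14.30 and 14.23 against 14.99, 14.46 and 14.34 (0.34 ± 0.24, adjusted p 0.618), so its transcript was not lower on the diabetic arrays. In the 15 other KK/Ay arrays Fasn lay between 11.53 and 14.69 and Scd1 between 10.6 and 13.52, below healthy 2 and 3 throughout.

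**Figure D4:**
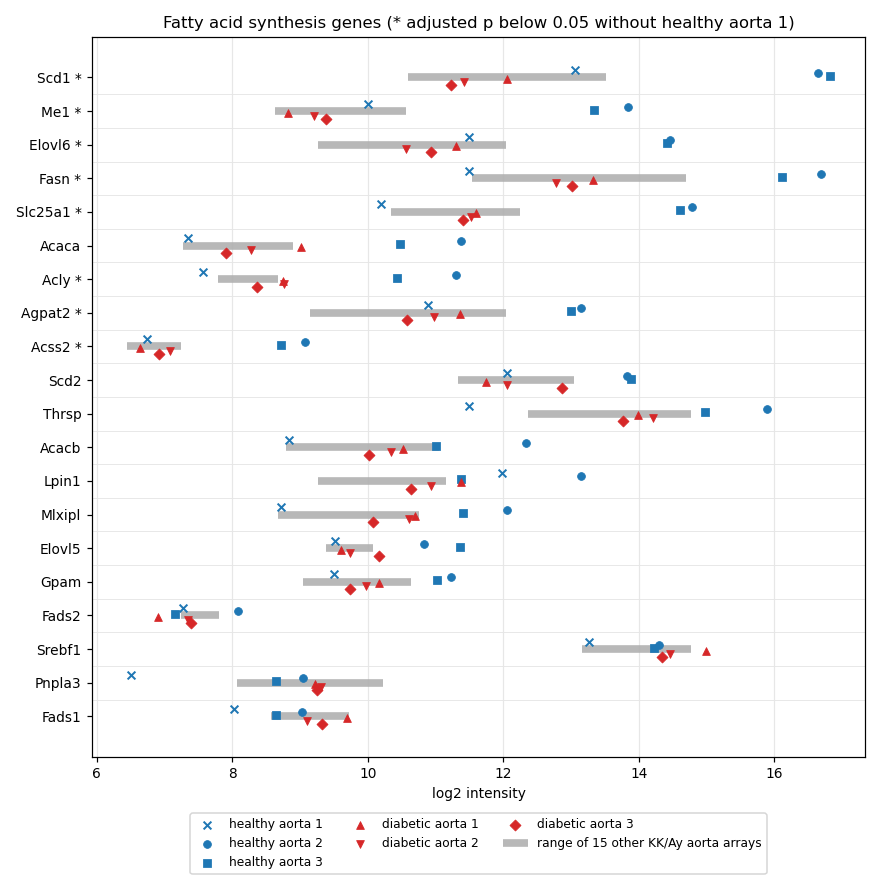
Log2 intensity (x axis) of the 20 fatty acid synthesis genes, ordered by their change without healthy aorta 1, on the healthy arrays (blue), the diabetic arrays (red) and as the range of the 15 other KK/Ay aorta arrays (grey bars). In the 8 genes marked with a star healthy 2 and 3 lie above all KK/Ay arrays, and healthy 1 (crosses) lies to their left.

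Since these genes moved together on healthy 2 and 3 against the diabetic arrays, the 250 bases before their transcription starts were read from the RefSeq promoter table (GRCm38.p6), which held 7 of the 8 genes, with 8 starts. Searched on both strands were CCAAT, which NF-Y binds, CACGTG, an E-box, and TCACNCCAC, a sterol response element. CCAAT or its complement was in 4 of the 8 starts, against 12 of the 22 starts of the tested members of the list (54.5%) and 33.8% of all 32851 starts in the table. CACGTG was in 1 of the 8 (12.5%) and 6.02% of all, and TCACNCCAC in none of the 8 and 1.05% of all. A match is a description of the letters and no site of binding. Printed here are the start with the most CCAAT boxes and the 2 others whose only start in the table has one, each 5′ to 3′ on the strand of the gene, with the motifs in capitals.
Fasn, chr11:120824548-120824797, minus strand: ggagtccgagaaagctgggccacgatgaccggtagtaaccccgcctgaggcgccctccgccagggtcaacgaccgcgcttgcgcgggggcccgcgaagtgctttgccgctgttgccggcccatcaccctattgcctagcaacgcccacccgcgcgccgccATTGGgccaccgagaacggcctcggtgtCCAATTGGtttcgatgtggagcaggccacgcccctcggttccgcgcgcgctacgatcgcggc
Slc25a1, chr16:17928220-17928469, minus strand: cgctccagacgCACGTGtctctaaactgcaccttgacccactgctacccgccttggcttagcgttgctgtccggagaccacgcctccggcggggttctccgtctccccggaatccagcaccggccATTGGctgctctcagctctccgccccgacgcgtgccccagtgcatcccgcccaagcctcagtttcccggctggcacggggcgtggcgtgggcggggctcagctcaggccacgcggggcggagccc
Acss2, chr2:155517793-155518042, plus strand: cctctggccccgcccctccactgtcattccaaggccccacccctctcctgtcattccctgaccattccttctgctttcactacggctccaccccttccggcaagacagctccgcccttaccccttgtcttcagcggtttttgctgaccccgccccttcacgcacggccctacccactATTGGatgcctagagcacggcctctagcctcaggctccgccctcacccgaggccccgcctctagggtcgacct
In Fasn the CCAAT boxes began 90, 62 and 59 bases before the start, the last 2 of them overlapping on opposite strands in the run CCAATTGG. In Slc25a1 the box lay at 125 bases and the E-box at 239, and in Acss2 the box at 73.

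In cholesterol synthesis 2 of 24 genes passed as lower without healthy array 1 and none with the 6 arrays (12 and 3 lower at an unadjusted p below 0.05), and 22 of 24 were negative in both fits (medians -0.60 and -0.40). Pmvk, phosphomevalonate kinase, was at 10.32, 13.36 and 12.78 against 9.15, 9.61 and 9.69 (-3.59 ± 0.26, adjusted p 0.00615, without healthy array 1), and Idi1, isopentenyl diphosphate isomerase, differed by -1.64 ± 0.23 (adjusted p 0.0374). In lipid uptake and storage 1 of 20 passed without healthy array 1, where 7 were lower at an unadjusted p below 0.05. It was Plin2, a coat protein of lipid droplets (-1.69 ± 0.19, adjusted p 0.0218), while Cd36, the fatty acid transporter, and Lpl, lipoprotein lipase, differed by -0.20 ± 0.17 and -0.83 ± 0.33. In fatty acid oxidation Ehhadh was the only one of 28 to pass in either fit, and Cpt1a and Cpt1b, which carry fatty acids into mitochondria, differed by 0.27 ± 0.16 and 0.01 ± 0.25 without healthy array 1. In the list of cholesterol efflux Apoc1, an apolipoprotein, and Npc2, which carries cholesterol out of lysosomes, were lower by that fit (-2.0 ± 0.29, adjusted p 0.0414, and -1.24 ± 0.18, adjusted p 0.041), 2 of 16. None of 45 genes of oxidative phosphorylation passed in either fit, and 8 were lower at an unadjusted p below 0.05 without healthy array 1. Of all 14089 genes, 1155 were lower at that threshold without healthy array 1 and 716 with the 6 arrays.

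Of 26 genes of glycolysis and glycogen, 5 passed as lower without healthy array 1, against 1.0% of all genes, and none with the 6 arrays. At an unadjusted p below 0.05, 14 and 2 were lower (medians -0.78 and -0.40). Hk2, the insulin-responsive hexokinase, was at 10.39, 12.57 and 12.37 against 10.14, 10.99 and 10.26 (-2.0 ± 0.29, adjusted p 0.0414). Pygl, glycogen phosphorylase of liver type, was at 9.50, 12.26 and 11.80 against 9.85, 9.67 and 9.94 (-2.20 ± 0.21, adjusted p 0.0125). The other 3 were the phosphofructokinases Pfkl (-1.66) and Pfkp (-1.23) and the pyruvate dehydrogenase kinase Pdk1 (-1.26). Hk1, the housekeeping hexokinase, was between 7.30 and 7.96 on all 6 arrays. Of 28 genes of insulin and IGF signalling none passed in either fit (2 higher and 3 lower at an unadjusted p below 0.05 without healthy array 1), and Insr, the insulin receptor, and Irs1 differed by -0.33 ± 0.20 and -0.46 ± 0.34 without healthy array 1.

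The fat genes did not all go one way. In white adipocytes Lep was higher, and 2 of 20 genes were lower without healthy array 1. Retn, resistin, was at 11.44, 12.39 and 12.99 against 8.59, 9.45 and 8.52 (-3.84 ± 0.35, adjusted p 0.0111, and -3.42 ± 0.45, adjusted p 0.0642, with the 6 arrays). Cfd, adipsin, the complement protease of fat, was at 14.97, 17.39 and 17.42 against 15.55, 15.66 and 15.71 (-1.77 ± 0.16, adjusted p 0.0111, and -0.95 ± 0.65 with the 6 arrays). Adipoq was at 13.46, 15.28 and 15.28 against 15.05, 14.73 and 14.73 (-0.44 ± 0.18, adjusted p 0.344, without healthy array 1). In brown adipocytes 4 of 18 were lower and 1 higher without healthy array 1. Elovl3, described above, Dio2, the deiodinase that activates thyroid hormone (-2.82 ± 0.22, adjusted p 0.00615), the potassium channel Kcnk3 (-1.98) and the thioesterase Acot11 (-1.65) were lower, and the calcium-binding protein gene S100b, also a gene of Schwann cells, was higher, at 9.68, 11.79 and 11.46 against 13.69, 14.04 and 14.34 (2.40 ± 0.25, adjusted p 0.0168). Ucp1 and Cidea, the leading markers of brown fat, were not among them. Ucp1 was at 14.98, 17.45 and 16.47 against 16.36, 16.70 and 16.82 (-0.33 ± 0.32, adjusted p 0.745), and Cidea differed by -0.87 ± 0.28 (adjusted p 0.244).

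Major urinary proteins, lipocalins made in liver and other tissues, were among the largest decreases without healthy array 1. Mup1 was at 11.11, 13.44 and 13.03 against 8.49, 6.90 and 7.72 (-5.53 ± 0.46, adjusted p 0.00787, and -4.83 ± 0.68, adjusted p 0.0707, with the 6 arrays). Mup4 was at 10.58, 12.98 and 12.27 against 8.27, 6.96 and 7.33 (-5.11 ± 0.43, adjusted p 0.00853). In both genes the groups did not overlap on the 6 arrays. The Mup genes are near-identical copies, so which of them was measured is uncertain. Other large decreases by that fit were Mtarc1, a molybdenum enzyme (-4.35), the membrane protein gene Tmem45b (-4.25) and LOC100505027. Over all 6 arrays LOC100505027 was at least 8.83-fold lower, and it was not above background on any diabetic array. Of the increases, LOC100504785 was at 8.54, 5.59 and 5.74 against 11.89, 11.83 and 11.86. Only 1 healthy array was above background there, so the size of the difference is not given. It passed without healthy array 1 (adjusted p 0.000243) and not with the 6 arrays (adjusted p 0.0707). Abhd1 and Abcc9, a subunit of the vascular ATP-sensitive potassium channel, were higher by 2.20 and 2.19. Abcc9 was at 7.57, 8.46 and 8.33 against 11, 10.46 and 10.29 (adjusted p 0.0215, and 0.0606 with the 6 arrays).

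Among cell cycle genes, Cdkn1a and Pttg1 passed with the 6 arrays and Mcm6, of the replicative helicase, only without healthy array 1 (-1.81 ± 0.23, adjusted p 0.0273), 3 of 23 genes. Apart from these the list followed healthy array 1. Mki67, a marker of dividing cells, was at 11.59, 6.92 and 7.69 against 7.81, 7.39 and 7.31, and the median of the list went from -0.85 to 0.01 when that array was left out. Of 15 glucocorticoid-responsive genes Cdkn1a passed in both fits, and Mt2, a metallothionein (-1.96 ± 0.30, adjusted p 0.0477), and Hsd11b1, which regenerates active glucocorticoid (-2.65 ± 0.28, adjusted p 0.0173), passed without healthy array 1. Hsd11b1 was at 12.44, 13.73 and 13.06 against 10.81, 11 and 10.43, with no overlap on the 6 arrays. Fkbp5 and Per1, other targets of the receptor, were at 8.41, 7.30 and 6.58 against 5.87, 6.58 and 6.43 and at 9.77, 9.96 and 8.87 against 9.41, 8.91 and 8.88, with adjusted p of 0.429 and 0.636 for the 6 arrays.

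Immune lists depended on healthy array 1 in size but not all in direction. In the T and B lymphocyte list 0 of 16 genes were positive with the 6 arrays and 9 of 16 without it (medians -1.15 and 0.06), and the macrophage list went from 9 to 18 positive genes of 23. Of the interferon response genes 27 of 28 were negative with the 6 arrays and 25 without healthy array 1 (medians -1.10 and -0.70), and the groups did not overlap in 14 and 15 of them, as against 19.4% and 31.5% of all genes. Usp18, which removes ISG15 from proteins and dampens the response, passed without that array, at 11, 9.50 and 9.56 against 7.57, 7.47 and 7.13 (-2.14 ± 0.20, adjusted p 0.0111). Irf7, the regulator of the response, was at 10.21, 7.44 and 7.91 against 6.87, 6.92 and 6.56, and did not pass (adjusted p 0.143 without healthy array 1). In antigen presentation 17 of 17 and 16 of 17 were negative and none passed in either fit (4 and 7 lower at an unadjusted p below 0.05). H2-K1, a class I heavy chain, was at 13.58, 12.85 and 12.98 against 12.07, 12.02 and 11.80 (-0.95 ± 0.17, adjusted p 0.0735). The H2 haplotypes of these mice are not given in the sources used here. Whether a probe of an H2 gene binds the alleles of both strains equally is therefore not known. The chemokine Ccl2, at 10.60, 6.90 and 7.39 against 7.70, 8.18 and 8.07, and the adhesion molecules Vcam1 and Icam1 did not pass (log2 fold changes of 0.84, -0.03 and -0.12 without healthy array 1), nor did any other of the 25 chemokine and cytokine, 15 leukocyte adhesion and 14 NF-kB genes. At an unadjusted p below 0.05 without healthy array 1 those lists held 4, 3 and 2, as against 14.5% of all genes.

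None of the 22 contractile smooth muscle genes passed in either fit, although 21 were positive with the 6 arrays and 20 without healthy array 1 (medians 1.43 and 0.77) and 7 and 6 were higher at an unadjusted p below 0.05. Acta2 was at 8.99, 12.16 and 11.25 against 12.82, 11.89 and 12.45 and Myh11 at 9.15, 13.94 and 12.64 against 15.01, 13.53 and 14.61, so that in both genes healthy 2 lay among the diabetic arrays and the other healthy arrays below them. The elastic fibre and proteoglycan list behaved alike, with 22 and 19 of 24 positive, medians of 0.98 and 0.68 and 12 genes higher at an unadjusted p below 0.05 with the 6 arrays, none after adjustment. Eln, the elastin gene, was at 6.96, 9.29 and 9.64 against 9.31, 8.23 and 8.70, whereas Mgp, the matrix protein that inhibits calcification, was at 12.64, 15.93 and 13.77 against 16.03, 16.22 and 16.60 (1.43 ± 0.61, adjusted p 0.362, without healthy array 1). Col1a1 and Col1a2 of type I collagen differed by -0.62 ± 0.44 and 0.26 ± 0.22. Of 21 metalloproteinases and inhibitors 1 passed without healthy array 1, Mmp3, stromelysin, at 11.99, 10.94 and 9.63 against 6.90, 7.58 and 7.40 (-2.99 ± 0.42, adjusted p 0.0374, and -3.56 ± 0.58, adjusted p 0.0913, with the 6 arrays).

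None of 25 endothelial genes passed in either fit. At an unadjusted p below 0.05, 5 were higher in each fit, and 1 was lower without healthy array 1, the marker Cdh5 (-0.68 ± 0.21). Nos3, the endothelial nitric oxide synthase, was at 8.50, 9.72 and 10.61 against 9.91, 9.60 and 9.26. Akr1b3, aldose reductase, the enzyme of the polyol path of glucose, was at 12.64, 11.65 and 12.17 against 13.02, 12.85 and 13.29 (1.14 ± 0.24, adjusted p 0.0978, without healthy array 1). Of 30 antioxidant genes Nnt was higher in both fits, and without healthy array 1 Gstt1, a glutathione transferase, was higher (1.05 ± 0.15, adjusted p 0.0424) and G6pdx, which makes NADPH from glucose-6-phosphate, lower (13.48, 14.21 and 13.98 against 12.31, 12.10 and 12.23; -1.88 ± 0.17, adjusted p 0.0118). Of 16 potassium and calcium channel genes 1 passed as higher, Abcc9, and 2 as lower, Kcnk3 among them, without healthy array 1. Altogether 8 of the 49 lists held a gene that passed with the 6 arrays and 19 without healthy array 1, and the remaining 30 held none.

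No clock gene passed in either fit. Dbp, a transcription factor whose transcript cycles strongly over the day, was at 10.98, 13.88 and 10.47 in the healthy group and 15.15, 14.35 and 14.93 in the diabetic group (3.03 ± 0.86, adjusted p 0.299). Arntl, the clock activator, was at 9.05, 7.82 and 9.49 against 6.80, 6.68 and 6.81 (-2.02 ± 0.42, adjusted p 0.169). The groups did not overlap in either gene, and in both healthy 2 lay nearest to the diabetic arrays. Of 12 repressor and output genes 11 were positive in both fits (median 0.60) and none passed (6 and 5 higher at an unadjusted p below 0.05), nor did any of 7 activator genes, and the hour of dissection is not given in the sources used here.

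Skeletal muscle of the same groups shows where the aorta differs. In muscle all 3 diabetic arrays lay on 1 slide and the healthy arrays on other slides, scanned on other days, so that group and slide cannot be told apart there, which touches each count below. In muscle alone 593 genes passed (4.27%). Of the 27 aortic genes of the 30 that were tested there, 25 had the same direction and 17 also passed, and of 175 of the 191, 142 had the same direction and 45 passed. The log2 fold change in muscle and in aorta was 4.46 and 5.01 for Gdpd3, -2.78 and -2.68 for Cyp2e1 and -4.91 and -3.57 for Pttg1, and the difference for Pttg1 was 1.34 ± 0.34 (adjusted p of the interaction 0.376). An interaction of group and tissue passed in 11 of 14800 genes (0.0743%) with all 12 arrays and in 55 (0.372%) without healthy aorta array 1, the 11 among them. Leaving out any other single array of the 12 gave 0 to 4. Gdf5 was higher in aorta and in muscle was at 6.91, 6.87 and 6.85 against 6.80, 6.26 and 6.88, a difference of the 2 changes of 2.36 ± 0.28 (adjusted p 0.0298). Cdh15 was higher in aorta and lower in muscle, where it was at 10.20, 10.81 and 12.07 against 8.94, 8.79 and 8.91 (4.24 ± 0.54, adjusted p 0.0455). The skeletal muscle list was highest on diabetic aorta array 2, at 14.28, where Cdh15 was at 8.53, between the other diabetic arrays, and the part of muscle in the result was not tested. Psph, the last enzyme of serine synthesis, was at 10.09, 10.32 and 10.43 against 9.12, 9.2 and 9.05 in aorta and at 9.05, 9.09 and 8.58 against 9.58, 9.96 and 9.57 in muscle (-1.95 ± 0.26, adjusted p 0.0464). Arrdc2, an arrestin-domain gene, was between 7.38 and 7.66 on all aorta arrays, while in muscle it was at 11.05, 10.66 and 11.19 against 8.62, 8.28 and 8.36 (2.5 ± 0.24, adjusted p 0.00962). No fatty acid synthesis gene was among the 11. The 55 without healthy aorta array 1 did include Me1 (-3.87, adjusted p of the interaction 0.00278) and Scd1 (-3.84, adjusted p 0.0368).

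**Figure D5:**
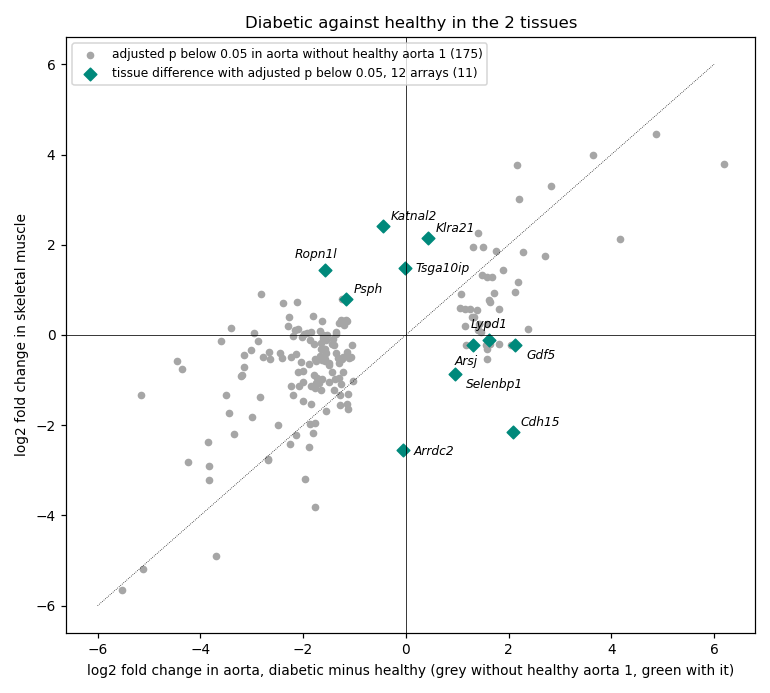
Log2 fold change, diabetic minus healthy, in aorta (x axis) and in skeletal muscle (y axis), for the 175 genes that passed in aorta without healthy aorta 1 and were tested in muscle (grey) and for the 11 genes whose change differed between the tissues with all 12 arrays (green). Most grey points lie in the lower left and upper right, and Cdh15 lies at 2.09 in aorta and -2.15 in muscle.

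The genes that passed were spread over the genome. Without healthy array 1, between 0.761% and 2.85% of the tested genes of each of the 19 autosomes passed, and 17 of the 19 held at least 1 of the 30.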

How the data were processed

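Total RNA of mouse aorta had been labelled with Cy3 and hybridised to single-colour Agilent arrays. The deposited scanner files hold intensity values per spot, which the authors extracted with Agilent Feature Extraction 10.7. The authors' deposited value table holds log2 values of the same arrays, quantile normalised, and served as an alternative. Median spot signals were corrected for background by normexp (offset 0), control spots were left out, all 42 arrays were quantile normalised, and spots and then probes were averaged per gene on the log2 scale. A gene was tested where at least 1 of its probes exceeded background on the 3 arrays of either group, by limma 3.58.1 in R 4.3.3 (lmFit and eBayes, no covariate), and p-values were adjusted by Benjamini-Hochberg over the 14089 genes with a threshold of 0.05. Between 58.42% and 68.99% of probes were above background on the 6 arrays and no spot was saturated. The number of arrays limits the precision. A lower bound on a fold change sets the lowest signal above background in place of a group without signal. The samples were grouped by their titles, and since nothing says which animal each array came from, the p-values measure the spread between these arrays.

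Probe symbols were updated through the RefSeq table of GRCm38.p6. Probe coordinates are those of the array files (mm9). The comparison, the gene lists and the tests were chosen with earlier results of these data known. Named were the label checks, the 12 largest changes in each direction, the first 2 members and the most changed passing members of each list, and the 4 interaction genes with the smallest p. The fit without healthy array 1, the genes it named, and Ighg3, S100a9, Cnn1, Srebf1 and the list members named to complete a count were chosen after their values were seen. The tests were checked on simulated data. Alternatives covered background correction, scaling, filter, probe choice, slide, arrays fitted and left-out arrays. The other 30 arrays outside the aorta comparison and its muscle counterpart entered only the normalisation, the alternatives and, for 15 aorta arrays, the levels quoted. A few genes that the naming rule includes are not reported here.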

Additional observations from a re-analysis of the deposited data

Results flagged for a closer look

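The change from healthy to diabetic differed between aorta and skeletal muscle in 11 genes, tested by an interaction term of group and tissue in limma over 12 arrays with adjusted p below 0.05. The difference, aorta minus muscle on the log2 scale, was 2.36 for Gdf5, 4.24 for Cdh15, 2.5 for Arrdc2 and -1.95 for Psph. All 11 genes also passed without healthy aorta array 1, where 55 did. Without any other single array the count was 0 to 4: 4 without healthy aorta 2, 2 without diabetic aorta 1 or 3 or any one healthy muscle array, 1 without diabetic muscle 1, and 0 without healthy aorta 3, diabetic aorta 2, or diabetic muscle 2 or 3. It was 3 with the processed signal. In muscle, group and slide cannot be told apart.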

How the results depend on the processing

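The count of 30 genes ranged from 21 to 42 under plain background subtraction with a floor, the processed signal, quantile scaling within 6 or 21 arrays, the authors' table, the brightest probe, a random slide block, an intensity trend and the fit of 21 arrays with slides. The genes themselves changed. Of the 42 with 21 arrays and slides, 10 were among the 30. Of the 21 with the processed signal, and of the 21 with the authors' table, 15 were. Under the other settings of this range 17 to 29 were. It was 16 with an offset of 50, 14 with no filter, 10 with probes above background on every array, 9 with slide 1 as a block and 0 with each slide as a block (smallest adjusted p 0.354, 1263 at an unadjusted p below 0.05). It was 593 when all 21 aorta arrays shared 1 estimate of the spread. A fit of the 12 arrays of both tissues gave 642, but the change tested there is the mean over aorta and muscle, not that of aorta. Leaving out 1 array gave 0 to 191, with 191 without healthy 1, 22 without healthy 2, 4 without healthy 3, 6 without diabetic 1, 0 without diabetic 2 and 2 without diabetic 3. The 1638 genes at an unadjusted p below 0.05 became 2801 with 21 arrays and 879 to 2244 with 1 array left out. For the mean change over both tissues, with 12 arrays, the number was 3133. Without healthy array 1, the 191 became 85 with the processed signal, 98 with the authors' table, 0 with each slide as a block (smallest adjusted p 0.064), 423 with 20 arrays, 78 with 20 arrays and slides, and 20 to 172 with a further array left out, where a lone healthy array was taken to vary like the diabetic group. Of the 78 genes of the limma fit with 20 arrays and slides, 30 were among the 191. Scd1 and Me1 passed there (adjusted p 0.0161 and 0.0106) and Fasn did not (adjusted p 0.331). The 9 genes of the slide 1 block ranged from 0 to 170 with 1 array left out. The 11 interaction genes became 3 with the processed signal, 2 with no filter and 0 to 55 with 1 array left out, and could not be fitted with each slide as a block. Among the 30 genes the sign of 2 aortic changes turned, both with the brightest probe: 1810037I17Rik (-0.28) and Thumpd1 (0.16). Cdh15 was at -0.03 in the fit of 12 arrays, which averages its changes of 2.09 in aorta and -2.15 in muscle. Some named genes that did not pass turned as well. Without healthy array 1, Ucp1 went from 0.33 to -0.33, Adipoq from 0.16 to -0.44 and Irs1 from 0.23 to -0.46. For these values the cause was not tested.

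Equal replicate numbers did not pair the arrays: deviations of same-numbered arrays correlated at 0.116, -0.026 and 0.053, against -0.126 to 0.13 for other pairs. With the replicate number as a block 0 genes passed (smallest adjusted p 0.0873, 1545 at an unadjusted p below 0.05).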
